A study of Homo sapiens with 6 samples.

Results

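The 44 genes described here are those of the proteasome and of NRF1. They cover 32 subunits of the constitutive particle (14 of the 20S core and 18 of the 19S regulatory particle), the 3 catalytic subunits of the immunoproteasome, 3 assembly chaperones of the 19S base, 4 proteasome activators, the maturation factor POMP and NFE2L1, the gene of the transcription factor NRF1. They form a list of named genes, and their symbols were matched to Ensembl identifiers. Each of the 44 matched 1 of the 60564 rows with an Ensembl gene identifier, and all 44 were among the 22230 genes with enough counts to be tested. RNA sequencing measured transcript levels in HepG2 cells, a human hepatoma line in wide laboratory use. In 3 libraries the cells had been given formononetin, an isoflavone of legumes, for 72 h, at a dose the labels give as 625 with the unit spelled μm. For the 3 control libraries the treatment label is the medium DMEM, with no solvent and no time, so the culture time of the control cells is not known. All 6 libraries carry the genotype label WT, and the labels do not say whether replicates were separate cultures. The p-values therefore measure only how far these libraries spread, which may be technical.

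The proteasome degrades proteins that carry ubiquitin chains. Its 20S core is a barrel of 4 stacked rings, with alpha rings outside and beta rings, which hold the cutting sites, inside. The 19S particle sits on the end of the barrel: its lid and base take up the tagged protein, remove the ubiquitin and feed the chain into the core with a ring of ATPases. NRF1 is made as a membrane protein of the endoplasmic reticulum and is normally pulled out by VCP and degraded by the proteasome. When proteasome capacity is short, NRF1 is deglycosylated by NGLY1, cut by DDI2 and enters the nucleus, where it binds antioxidant response elements with a small MAF protein and raises proteasome subunit genes together. Its close relative NRF2 binds elements of the same kind. In the immunoproteasome, which interferons induce, PSMB8, PSMB9 and PSMB10 replace PSMB5, PSMB6 and PSMB7.

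Promoters are shown first because the best known regulator of these genes binds a defined motif. RefSeq windows of 300 bases (GRCh38.p14, from 250 bases before the annotated start to 50 bases after it) were at hand for 39 of the 44 members, in 48 windows, since a gene may have several starts. No window was used for PSMA7, PSMB1, PSMB6, PSMB7 and PSMD4. The core of the antioxidant response element was searched as TGACNNNGC on both strands. It occurred in 14 of the 39 members (35.9%), against 4384 of 27305 symbols with a window (16.1%). Counted by window, it occurred in 15 of 48 (31.2%), against 4687 of 35116 (13.3%). A longer motif of the same family, TGANTCAGC, which overlaps the core wherever its free base is C, was found in 1 member, PSMD9, and in 453 of the 27305 symbols (1.66%). The CCAAT box, bound by NF-Y, was found in 20 of 39 members (51.3%) and in 10846 of the 27305 symbols (39.7%). The symbols set beside the members were not matched to them in GC content or gene type. The 14 members with the core motif include PSMB9, PSMD5, PSMD9, PSME1, PSME2 and PSME4, which lie outside the constitutive particle. A match is a stretch of letters and not a measured binding site.

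The windows printed first are, for each part of the constitutive particle, that of the member with the largest rise among those that hold the core motif. The motif is in capitals and sequences run 5′ to 3′ on the strand of the gene. In PSMA4 it lies in the most downstream of 3 windows and begins 126 bases before that start. In PSMB3 it begins 104 bases before the start. PSMC4 holds it 27 bases after the start on the opposite strand, and PSMD1 holds it 39 bases after the start. PSMD3 has a pair, 37 bases before the start and, on the opposite strand, 33 bases after it.
PSMA4 (chr15:78540536-78540835, plus strand): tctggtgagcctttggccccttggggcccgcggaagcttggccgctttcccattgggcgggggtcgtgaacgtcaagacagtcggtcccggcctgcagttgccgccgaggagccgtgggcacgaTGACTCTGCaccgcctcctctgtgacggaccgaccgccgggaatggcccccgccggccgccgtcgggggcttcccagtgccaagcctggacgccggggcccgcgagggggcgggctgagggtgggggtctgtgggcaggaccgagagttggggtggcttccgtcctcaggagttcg
PSMB3 (chr17:38752491-38752790, plus strand): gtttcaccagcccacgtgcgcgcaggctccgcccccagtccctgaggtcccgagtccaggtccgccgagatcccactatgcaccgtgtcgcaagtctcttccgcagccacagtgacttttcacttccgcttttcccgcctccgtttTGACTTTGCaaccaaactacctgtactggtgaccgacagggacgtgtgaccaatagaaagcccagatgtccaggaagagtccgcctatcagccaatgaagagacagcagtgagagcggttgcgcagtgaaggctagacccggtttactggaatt
PSMC4 (chr19:39970915-39971214, plus strand): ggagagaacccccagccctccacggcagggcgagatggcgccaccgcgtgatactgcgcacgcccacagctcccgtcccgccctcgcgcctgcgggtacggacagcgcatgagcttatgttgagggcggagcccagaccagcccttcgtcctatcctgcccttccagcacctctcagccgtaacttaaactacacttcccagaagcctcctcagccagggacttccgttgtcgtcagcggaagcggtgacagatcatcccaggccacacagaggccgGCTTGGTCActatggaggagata
PSMD1 (chr2:231056617-231056916, plus strand): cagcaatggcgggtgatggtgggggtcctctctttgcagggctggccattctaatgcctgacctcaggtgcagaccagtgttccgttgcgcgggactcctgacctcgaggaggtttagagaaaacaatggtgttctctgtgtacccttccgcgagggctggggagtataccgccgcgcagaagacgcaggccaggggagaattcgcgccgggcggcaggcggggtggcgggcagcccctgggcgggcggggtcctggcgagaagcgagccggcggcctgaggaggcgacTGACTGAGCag
PSMD3 (chr17:39980557-39980856, plus strand): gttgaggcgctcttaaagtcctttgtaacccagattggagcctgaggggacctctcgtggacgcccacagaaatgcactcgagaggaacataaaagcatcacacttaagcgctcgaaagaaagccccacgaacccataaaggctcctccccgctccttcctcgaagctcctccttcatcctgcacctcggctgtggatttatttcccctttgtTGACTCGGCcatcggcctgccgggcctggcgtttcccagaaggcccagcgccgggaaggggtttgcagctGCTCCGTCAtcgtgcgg

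The genes with the largest rises of all, NFE2L1 and PSMC2, had no match to the core motif in their windows. Of the next largest log2 fold changes, PSMA1 (0.67), PSMD2 (0.67) and PSMD11 (0.63) had neither the core motif nor a CCAAT box there. PSME3 (0.65) had 1 CCAAT box and no core motif. The members were not split by CCAAT box. The upstream of the 2 NFE2L1 windows holds 5 CCAAT boxes over both strands, and that of PSMC2 holds 1, 31 bases before the start. Capitals mark the CCAAT boxes in these sequences, read as ATTGG where they lie on the opposite strand.
NFE2L1 (chr17:48048109-48048408, plus strand): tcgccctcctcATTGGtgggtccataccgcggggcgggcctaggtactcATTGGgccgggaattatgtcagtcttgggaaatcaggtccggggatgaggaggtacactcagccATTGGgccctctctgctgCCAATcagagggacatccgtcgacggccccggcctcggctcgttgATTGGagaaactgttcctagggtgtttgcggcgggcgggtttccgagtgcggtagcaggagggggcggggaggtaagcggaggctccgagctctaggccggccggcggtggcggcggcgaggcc
PSMC2 (chr7:103347393-103347692, plus strand): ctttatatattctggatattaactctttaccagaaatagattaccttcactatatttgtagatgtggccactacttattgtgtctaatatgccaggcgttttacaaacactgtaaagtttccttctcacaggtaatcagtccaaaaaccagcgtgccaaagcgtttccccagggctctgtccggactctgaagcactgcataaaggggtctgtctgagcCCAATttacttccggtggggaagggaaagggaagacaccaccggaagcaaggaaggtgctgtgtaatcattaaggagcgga

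Rises were found with and without the core motif. Of the 14 members with a match 9 were raised, with a median log2 fold change of 0.37, and of the 25 without a match 19 were raised, with a median of 0.43. No test of this split was made. The members with a match include PSMB9, PSMD5, PSMD9, PSME1, PSME2 and PSME4, and those without include PSMB8, PSMB10, PSMD10 and PSME3. All of these belong to the immunoproteasome, chaperones or activators, whose medians were lower (0.23 to 0.29) than those of the constitutive parts. The sides of the split thus differ in the parts they hold, and the order of their medians cannot be read as an effect of the motif.

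The libraries held 37465148 to 45682722 counts on Ensembl genes with formononetin and 30848848 to 36243606 in control. Values below are CPM (counts for every 1000000 of the TMM-scaled library total) and log2 fold changes of formononetin over control ± standard error. CPM are relative to the scaled total of each library, so a change in RNA per cell cannot be told apart from a change in share. Along the first principal component (38.9% of variance) the groups lay apart, and control replicate 1 stood alone on the second (47.3, against -25.4 to 5.22 for the other 5 libraries). Liver markers were abundant, with APOB, the structural protein of very low density lipoprotein, at 23160 to 23870 CPM in formononetin and 25310 to 26000 CPM in control libraries. Of 8 liver markers 2 were raised and 5 lowered. Together the 8 summed to 32949 to 33660 CPM with formononetin and 39246 to 40162 CPM in control, 16.4% lower with formononetin. PTPRC and CD3E of leukocytes and COL1A2 and COL3A1 of fibroblasts had no counts in any library. The 6 leukocyte markers summed to 978 to 1016 CPM with formononetin and 1202 to 1295 CPM in control, nearly all of it LYZ. CD68 of that list, a macrophage marker, went the other way, at 5.26, 7.79 and 7.13 CPM with formononetin and 3.88, 3.77 and 2.39 CPM in control (1.01 ± 0.23, edgeR adjusted p = 0.0204), a call lost without formononetin replicate 2 or 3. The 4 endothelial markers summed to 24.0 to 28.2 CPM with formononetin and 22.1 to 25.6 CPM in control. The 6 fibroblast and stellate markers summed to 40.7 to 43.4 CPM with formononetin and 77.4 to 82.9 CPM in control, most of it ACTA2. The part of these markers in the results was not tested.

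Formononetin libraries held more transcript of nearly every part of the proteasome. Of the 44 members 32 were raised and 0 lowered (by edgeR's quasi-likelihood test at a Benjamini-Hochberg false discovery rate of 0.05 over all tested genes), where 12.0% of all tested genes were raised and 8.71% lowered. None of the 44 was lowered at an unadjusted p under 0.05, by DESeq2 or by limma voom either. Among tested genes of similar level (mean of 55.8 to 131 CPM, the middle 50% of the members) 24.9% were raised, with a median log2 fold change of 0.05. The median over the 44 members was 0.37, and that over all tested genes was -0.01. The rises were small: among raised members the log2 fold change ran from 0.21 to 0.90, a mean of 15.8 to 86.3% more transcript, and 0 reached 2-fold. In 35 of the 44 members all formononetin libraries lay above all control libraries, and in 0 below them, which held for 20.8% and 18.7% of all tested genes. In all, 24 of the 32 calls held in each of 17 other settings. The number raised was 29 without control replicate 1 and lowest, at 25, without formononetin replicate 1.

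**Figure D1:**
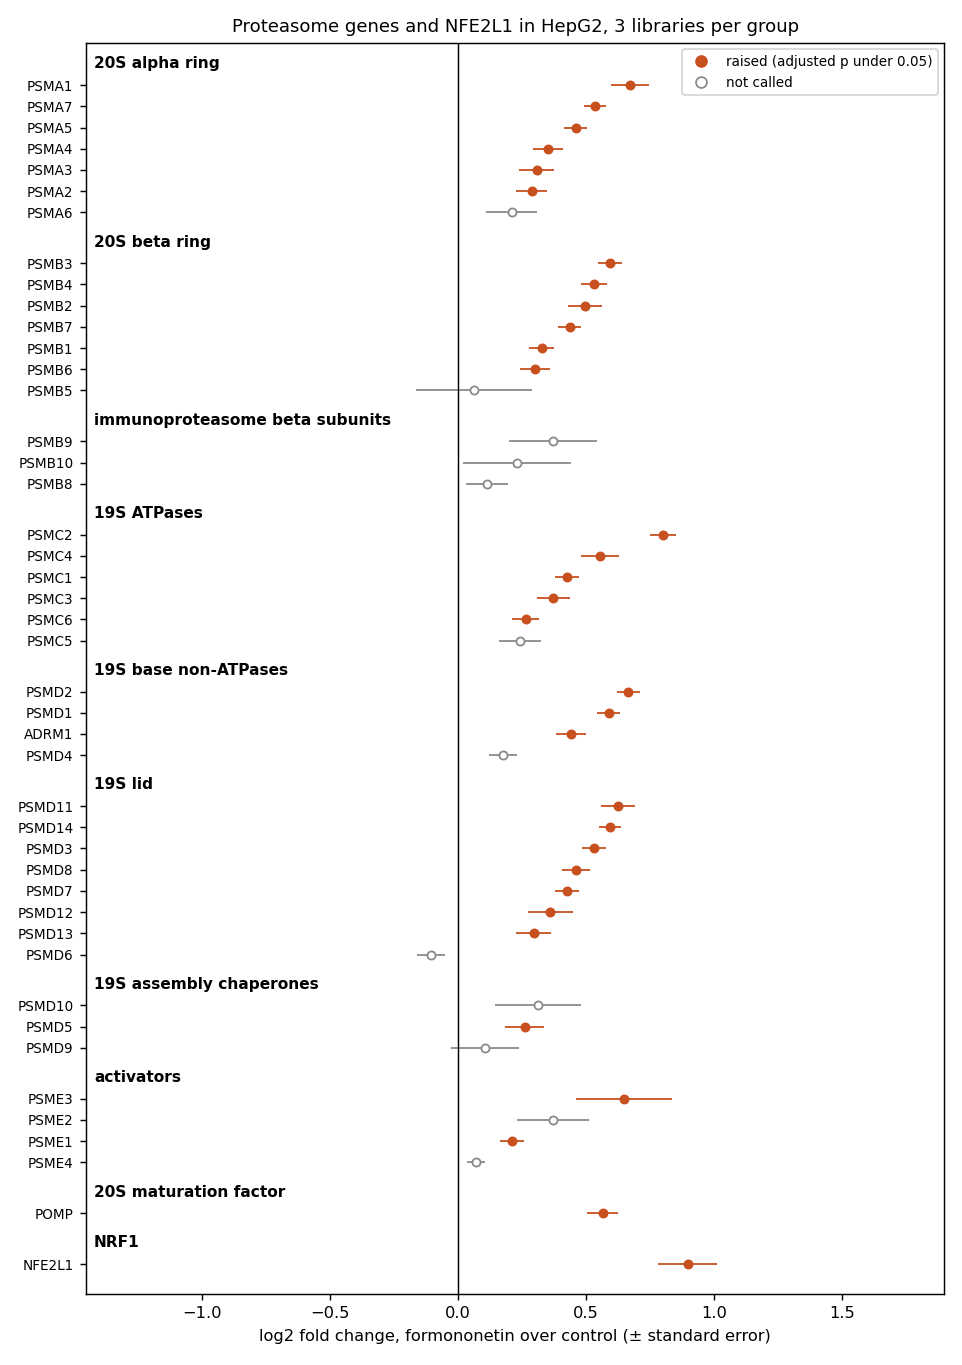
Log2 fold change of formononetin over control for the 44 members, by part of the proteasome. Points are estimates from 3 libraries per group, lines are standard errors, filled points were raised at an adjusted p under 0.05 and open points were not called. The estimates lie to the right of 0 for 43 members and to the left for PSMD6.

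The 32 subunits of the constitutive particle together took 0.378% of the TMM-scaled library total with formononetin and 0.280% in control libraries. Their summed level was 3777, 3721 and 3849 CPM in formononetin replicates 1 to 3 and 2862, 2792 and 2753 CPM in control replicates 1 to 3. The groups were far apart, and the sum was 34.9% higher with formononetin. Of these 32 subunits 27 were raised. The sum of the 18 subunits of the 19S particle was 38.4% higher (2077 ± 39.3 against 1501 ± 8.05 CPM, SD, n = 3 each) and that of the 14 core subunits 31.0% higher (1705 ± 28.0 against 1302 ± 56.9 CPM).

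**Figure D2:**
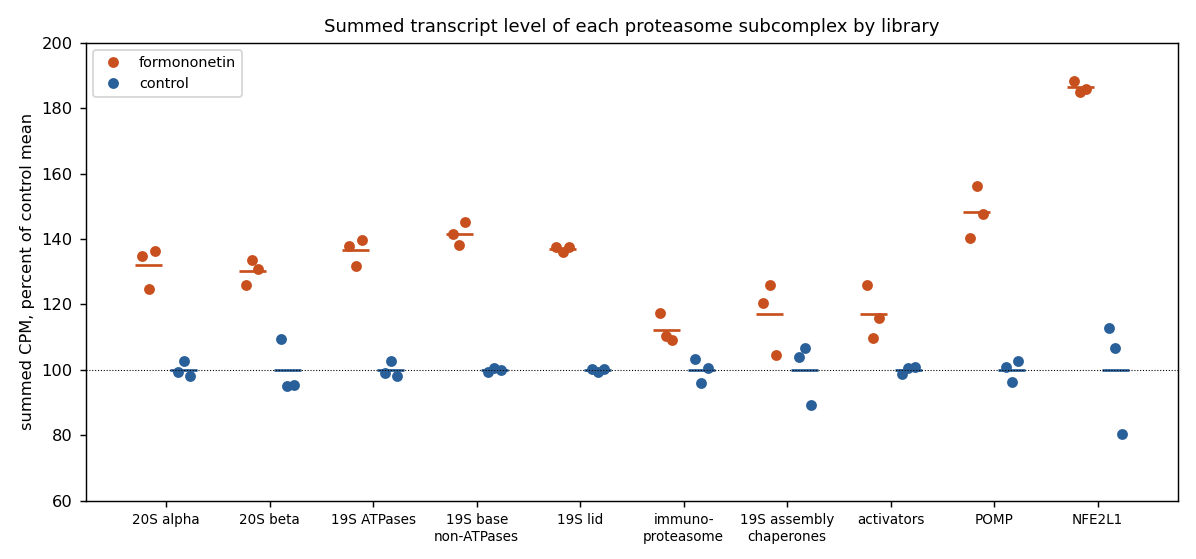
Summed CPM of each part of the proteasome in every library, as a percentage of the control mean. Points are the 3 formononetin libraries (left) and the 3 control libraries (right) of each part, and short lines are group means; the vertical axis starts at 60%. The formononetin means of the 20S rings and of the 3 parts of the 19S particle lie 30.1 to 41.6% above the control means, those of POMP and NFE2L1 48.1 and 86.4% above, and those of the immunoproteasome, chaperones and activators 12.2 to 17.2% above.

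In the alpha ring of the core, whose subunits form the gate through which proteins enter, 6 of 7 members rose (median 0.35). PSMA1 rose most. It was at 96.3, 81.0 and 95.1 CPM in formononetin replicates 1 to 3 and 55.7, 58.1 and 57.1 CPM in control replicates 1 to 3. The groups did not overlap, and the log2 fold change was 0.67 ± 0.07 (edgeR adjusted p = 0.00113, chromosome 11, 14504874 to 14643635, GRCh38, minus strand). PSMA1 shares exon sequence on the same strand with a further protein-coding gene model, and the sum of both rose by 0.68 on the log2 scale. PSMA7 (0.54), PSMA5 (0.46), PSMA4 (0.35), PSMA3 (0.31) and PSMA2 (0.29) rose by less. PSMA6 changed least and was not called, at 207, 169.7 and 227 CPM with formononetin and 171, 179.5 and 172 CPM in control (0.21 ± 0.10, edgeR adjusted p = 0.187). Formononetin replicate 2 lay within the control range there, and the call of PSMA6 was made only without that library. PSMA6 also shares exons with a further gene model, and their sum was not called either (0.25, adjusted p = 0.141). PSMA2 lost its call with control replicate 3 or formononetin replicate 3 left out, and with a replicate block (adjusted p up to 0.0624). PSMA3 lost its call when formononetin replicate 1 or 2 was left out, and under upper quartile scaling (adjusted p up to 0.0668).

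In the beta ring 6 of 7 constitutive members rose (median 0.44). PSMB3, a structural subunit without a cutting site, rose most (0.59 ± 0.05, edgeR adjusted p = 0.000367, chromosome 17, 38752736 to 38764231, plus strand). It was at 163, 155 and 150.2 CPM with formononetin and 105, 102 and 104 CPM in control. The other structural subunits PSMB4 (0.53), PSMB2 (0.50) and PSMB1 (0.33) rose as well. Of the cutting subunits, PSMB7, of the trypsin-like site, rose by 0.44 and PSMB6, of the caspase-like site, by 0.30 on the log2 scale. PSMB5, which carries the chymotrypsin-like site (chromosome 14, 23016543 to 23035230, minus strand), was not called. It was at 142, 198 and 165 CPM with formononetin and 224, 129 and 131 CPM in control, so control replicate 1 was the highest of all 6 libraries and the other controls the lowest. Its log2 fold change was 0.07 ± 0.23 (edgeR adjusted p = 0.878). Without control replicate 1 it was 0.38, still not called (adjusted p = 0.115), and it was -0.07 without control replicate 2, without control replicate 3 or without formononetin replicate 2.

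The cutting subunits of the immunoproteasome were scarce and did not pass the test. None of the 3 was raised by edgeR, at an unadjusted p under 0.05, by DESeq2 or by limma voom. PSMB8 was at 15.5, 15.1 and 14.3 CPM with formononetin and 14.4, 13.9 and 13.1 CPM in control, and the groups overlapped (0.11 ± 0.08, edgeR adjusted p = 0.374). PSMB9 was at 3.002, 2.57 and 2.34 CPM with formononetin and 2.30, 2.07 and 1.74 CPM in control (0.37 ± 0.17, adjusted p = 0.18). All its formononetin libraries lay above all its controls, by little. PSMB10 was at 4.47, 3.91 and 4.68 CPM with formononetin and 3.46, 2.79 and 4.87 CPM in control (0.23 ± 0.21, adjusted p = 0.497), with control replicate 3 the highest. Each of the 3 overlaps other gene models. Summed with its overlapping model on the same strand, PSMB10 had a log2 fold change of -0.07, and PSMB9 with its own had 0.01, neither called. Per kilobase of exon, PSMB8 stood at 7.20 to 10.3% of PSMB5 with formononetin and 6.10 to 10.2% in control. PSMB9 stood at 2.77 to 3.99% of PSMB6 with formononetin and 2.76 to 3.45% in control, and PSMB10 at 3.08 to 3.45% of PSMB7 with formononetin and 2.92 to 4.98% in control. The ranges of these ratios overlapped between groups for all 3 pairs.

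**Figure D3:**
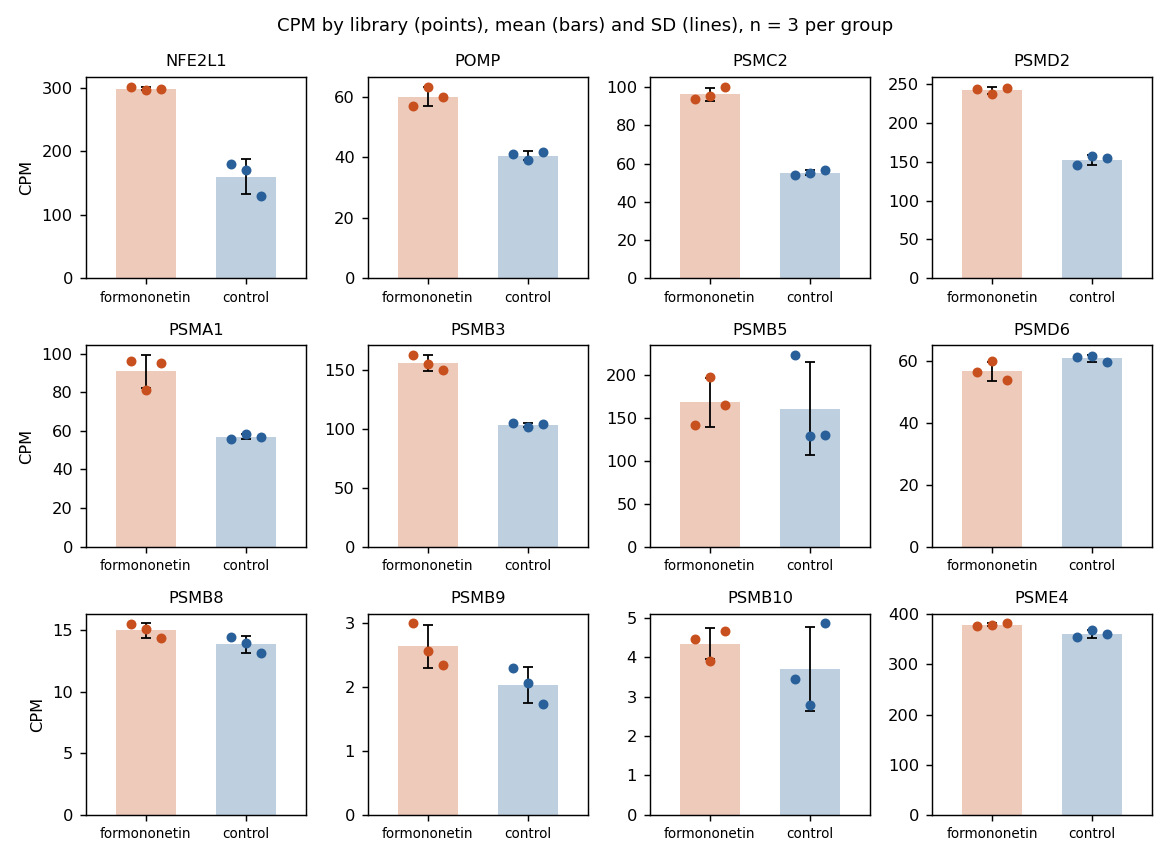
CPM of 12 members in every library, with formononetin on the left and control on the right of each panel. Points are libraries, bars are means and lines are SD (n = 3 per group), and each vertical axis starts at 0. The groups are apart for NFE2L1, POMP, PSMC2, PSMD2, PSMA1 and PSMB3, and also for PSMB9 and PSME4, which were not called. They overlap for PSMB5, PSMD6, PSMB8 and PSMB10.

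Of the 6 ATPases of the 19S base, which unfold the substrate, 5 rose (median 0.40). PSMC2 had the largest rise of any subunit. It was at 93.7, 95.1 and 100.2 CPM in formononetin and 54.0, 55.2 and 56.6 CPM in control libraries. The spread within groups was small beside the gap, and the log2 fold change was 0.80 ± 0.05 (edgeR adjusted p = 0.000167, chromosome 7, 103344254 to 103369395, plus strand). PSMC4 (0.56), PSMC1 (0.43), PSMC3 (0.37) and PSMC6 (0.27) rose by less. The call of PSMC6 was lost without formononetin replicate 1 (adjusted p = 0.0514). PSMC5 was at 96.5, 103 and 109 CPM with formononetin and 83.8, 96.6 and 79.7 CPM in control. Its control replicate 2 lay just above the lowest formononetin library, and it was not called (0.24 ± 0.08, adjusted p = 0.0782). It was raised by DESeq2, with library totals only and without control replicate 2 (adjusted p down to 0.0269). PSMC5 shares exon sequence with FTSJ3 on the opposite strand, and the strand setting of the counting is not known. The same limit holds for many raised members. PSMC1 overlaps NRDE2, PSMD1 overlaps HTR2B, PSMD13 overlaps SIRT3, PSME3 overlaps BECN1 and ADRM1 overlaps LAMA5 on the opposite strand. PSMD7, PSMD11, PSMD14 and NFE2L1 overlap noncoding models there. What such overlaps add to the counts was not tested, since only same-strand models were summed.

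Of the 4 other subunits of the base, 3 rose (median 0.52). PSMD2, a scaffold and docking site for ubiquitin-like proteins (chromosome 3, 184298709 to 184309054, plus strand), was at 244, 236.5 and 245 CPM with formononetin and 146, 157 and 155 CPM in control. All formononetin libraries lay well above the controls (0.67 ± 0.04, edgeR adjusted p = 0.000215). Its partner scaffold PSMD1 rose by 0.59 on the log2 scale. ADRM1, a ubiquitin receptor, was at 148, 139 and 144 CPM with formononetin and 112, 98.3 and 107 CPM in control (0.44 ± 0.06, adjusted p = 0.00223). The other ubiquitin receptor, PSMD4, was at 124.5, 122 and 136 CPM with formononetin and 109, 114 and 115 CPM in control. The groups of PSMD4 did not overlap, but the difference was not called (0.18 ± 0.06, adjusted p = 0.0613). PSMD4 was raised by DESeq2, with library totals only and with assembled loci kept (adjusted p down to 0.0207).

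Of the 8 lid subunits 7 rose (median 0.44). PSMD11, a scaffold of the lid, rose most, at 158, 156 and 136 CPM with formononetin and 93.5, 99.4 and 98.8 CPM in control (0.63 ± 0.07, edgeR adjusted p = 0.00105, chromosome 17, 32444261 to 32483318, plus strand). PSMD14, the enzyme that cuts ubiquitin chains off the substrate, followed with 0.59 ± 0.04 (adjusted p = 0.000295). PSMD3 (0.53), PSMD8 (0.46), PSMD7 (0.43), PSMD12 (0.36) and PSMD13 (0.30) also rose. PSMD6 was the only one of the 44 members with an estimate below 0. It was at 56.5, 59.96 and 53.8 CPM with formononetin and 61.5, 61.7 and 59.76 CPM in control, so formononetin replicate 2 lay just above the lowest control (-0.10 ± 0.06, adjusted p = 0.247, chromosome 3, 64010549 to 64024010, minus strand). It overlaps the antisense genes PSMD6-AS1 and PSMD6-AS2. PSMD12 lost its call when any of control replicates 2 and 3 and formononetin replicates 1 and 3 was left out, under upper quartile scaling and with adjustment for GC content and length (adjusted p up to 0.0903). PSMD13 did so when any of control replicates 1 and 2 and formononetin replicates 1 and 3 was left out, and under upper quartile scaling (adjusted p up to 0.0856).

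Factors that build the particle were mixed. POMP, which guides the beta subunits into the partly built core and is then degraded in it, was at 56.9, 63.4 and 59.96 CPM with formononetin and 41.0, 39.0 and 41.7 CPM in control. The groups were well apart (0.57 ± 0.06, edgeR adjusted p = 0.00105, chromosome 13, 28659104 to 28678925, plus strand). Of the 3 chaperones of the 19S base only PSMD5 was raised, by 0.26 on the log2 scale, at an adjusted p of 0.0494. That call did not hold with control replicate 1 or 3 or any formononetin replicate left out, nor in 5 other settings (adjusted p up to 0.135). PSMD10, also known as gankyrin and studied as a liver oncoprotein, was at 20.3, 24.3 and 16.5 CPM with formononetin and 18.0, 17.7 and 13.4 CPM in control (0.31 ± 0.17, adjusted p = 0.239). PSMD9 was at 25.1, 25.7 and 19.6 CPM with formononetin and 24.2, 22.2 and 19.1 CPM in control (0.11 ± 0.13, adjusted p = 0.626). Both overlapped between groups.

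Activators cap the core in place of the 19S particle. PSME1 and PSME2 form the interferon-inducible cap PA28, and PSME3 and PSME4 make nuclear caps. PSME3 had the largest estimate, at 155, 96.5 and 126 CPM with formononetin and 89.8, 86.4 and 64.4 CPM in control (0.65 ± 0.19, edgeR adjusted p = 0.0471, chromosome 17, 42824385 to 42843758, plus strand). Its libraries were widely spread, and the call did not hold with any control replicate or formononetin replicate 1 or 3 left out, nor in 5 other settings (adjusted p up to 0.125). PSME1 rose by 0.21 ± 0.05 (adjusted p = 0.0204), a call that did not hold with any of control replicates 2 and 3 and formononetin replicates 1 and 3 left out, nor under upper quartile scaling (adjusted p up to 0.0915). PSME2 was not called (0.37 ± 0.14, adjusted p = 0.11), but was raised by DESeq2 and without control replicate 3 (adjusted p down to 0.0301). PSME4 was at 377, 379 and 382 CPM with formononetin and 354, 369 and 359.7 CPM in control. These groups were apart but close, and PSME4 was not called (0.07 ± 0.04, adjusted p = 0.21).

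NFE2L1 had the largest rise of the 44 members. It was at 302, 297 and 298 CPM in formononetin replicates 1 to 3 and 181, 171 and 129 CPM in control replicates 1 to 3. The formononetin libraries were nearly equal, while control replicate 3 was the lowest, and the groups were far apart. The log2 fold change was 0.90 ± 0.12 (edgeR adjusted p = 0.00209, ENSG00000082641, chromosome 17, 48048329 to 48061487, GRCh38, plus strand). The call held in all 17 other settings, with a log2 fold change of 0.76 to 0.99. NRF1 is controlled mainly through its protein, which was not measured here.

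Per kilobase of exon, the level at which genes can be set side by side, members ranged widely. In both groups PSMB3 was the highest, at 202 ± 8.35 CPM per kilobase with formononetin and 134 ± 2.08 in control (SD, n = 3 each). PSMB9 was the lowest, at 2.86 ± 0.365 with formononetin and 2.21 ± 0.307 in control. In control, PSMB1 (124 ± 3.95), PSMA6 (121 ± 3.37), PSME1 (119 ± 1.06) and PSMB4 (119 ± 6.77) came next and did not differ beyond their spread. With formononetin PSMB4 was second (172 ± 2.85), ahead of PSMB1 (156 ± 5.79). NFE2L1 was at 55.9 ± 0.51 CPM per kilobase with formononetin and 30.0 ± 5.15 in control, in the middle of the members. Core subunits with long annotated exons stood low on this scale, such as PSMA4 (14.1 ± 0.724 with formononetin, 11.04 ± 0.368 in control), so the order depends on the lengths used.

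**Figure D4:**
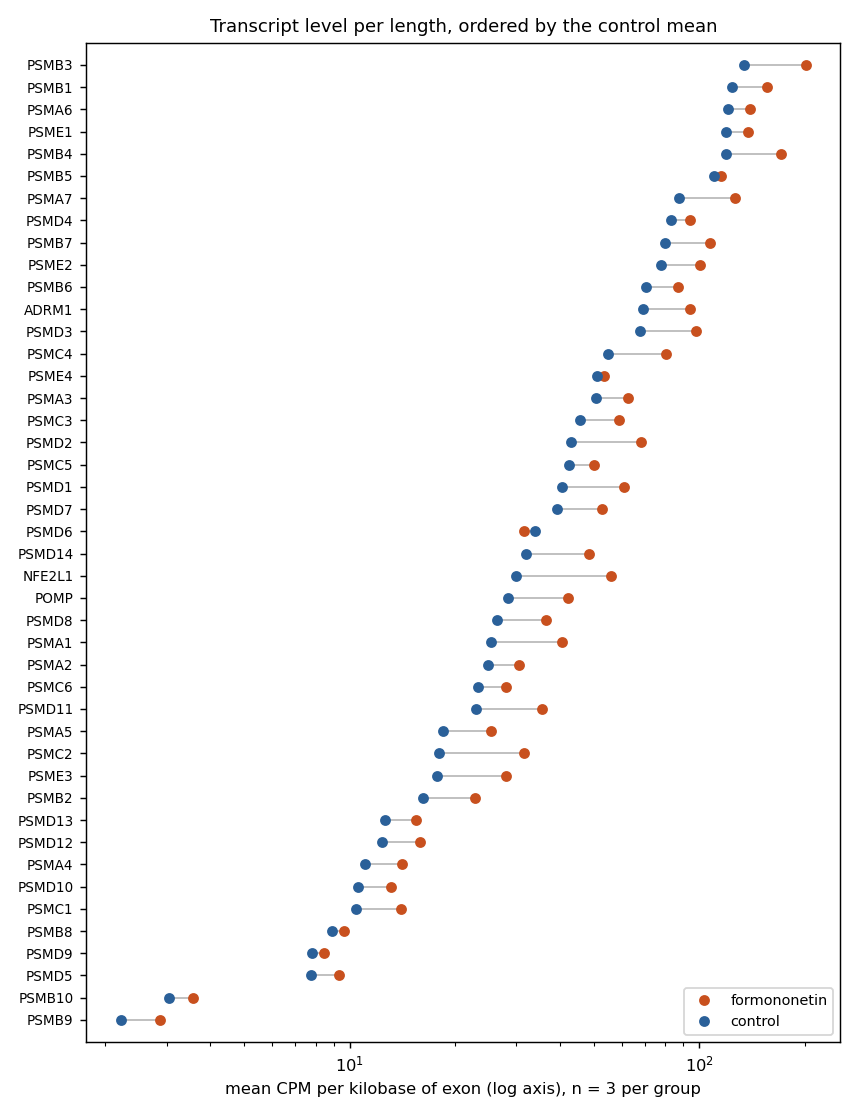
Mean CPM per kilobase of exon of the 44 members in formononetin and control libraries (n = 3 each, log axis), ordered by the control mean. Lines join the means of a gene. The formononetin mean lies to the right of the control mean for 43 members and to the left for PSMD6, and PSMB9 and PSMB10 lie lowest.

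Of 11 tested assembly factors and accessory subunits outside the members, 1 was raised and 1 lowered (median 0.10, and -0.05 without formononetin replicate 1), where 12.0% of all tested genes were raised and 8.71% lowered. PSMG1, a chaperone of the alpha ring, was at 47.6, 39.5 and 48.0 CPM with formononetin and 31.6, 33.0 and 30.6 CPM in control (0.50 ± 0.09, edgeR adjusted p = 0.00729). PSMG4, of the same chaperone group, fell, at 46.0, 44.2 and 42.7 CPM with formononetin and 52.2, 54.1 and 54.2 CPM in control (-0.27 ± 0.05, adjusted p = 0.0119). SEM1, the smallest lid subunit, was not called (0.10 ± 0.08). PSMA8, of the testis proteasome, had no counts, and PSMB11, of the thymus proteasome, was at 0.0885 CPM at most.

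Among 13 tested genes for NRF1 processing and turnover 5 rose and 2 fell (median 0.13). Over all tested genes 12.0% were raised and 8.71% lowered, and 24.9% were raised among those of similar level to the members. VCP, which extracts NRF1 from the membrane, was at 530.2, 538.5 and 544.6 CPM with formononetin and 355, 362 and 374 CPM in control (0.56 ± 0.04, edgeR adjusted p = 0.000215), and its cofactor NPLOC4 rose by 0.43. Of the membrane ubiquitin ligase that marks NRF1, both parts fell. SEL1L was at 135, 140.3 and 139 CPM with formononetin and 184, 248 and 241 CPM in control (-0.70 ± 0.11, adjusted p = 0.00429), and SYVN1 changed by -0.58 ± 0.15 (adjusted p = 0.0295). SYVN1 lost its call when control replicate 3, formononetin replicate 1 or formononetin replicate 2 was left out, and with no low-count filter (adjusted p up to 0.095). The protease DDI2 rose slightly (0.15 ± 0.04, adjusted p = 0.0475), a call lost without any 1 of the 6 libraries and in 5 other settings (adjusted p up to 0.286). The glycanase NGLY1 was not called (0.13 ± 0.06, adjusted p = 0.185). Genes raised in this list numbered 3 in 5 other settings, among them a replicate block and leaving out control replicate 3 or formononetin replicate 2 or 3.

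Of 8 tested relatives and partners of NRF1, 1 rose and 1 fell, with a median of -0.06, where 12.0% of all tested genes were raised and 8.71% lowered. BACH1, a repressor at the same elements, rose by 0.26 ± 0.05 (edgeR adjusted p = 0.00823). NFE2 was at 5.19, 5.85 and 6.16 CPM with formononetin and 12.7, 8.52 and 10.8 CPM in control (-0.90 ± 0.16, adjusted p = 0.00867). NFE2L2, the gene of NRF2, was at 228, 237 and 199 CPM with formononetin and 209, 196 and 59.0 CPM in control. Control replicate 3 was far below the other 5 libraries, and NFE2L2 was not called (0.52 ± 0.41, adjusted p = 0.428; 0.13 without control replicate 3). NFE2L3 was not called either (-0.12 ± 0.06, adjusted p = 0.211).

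Among 14 genes for ubiquitin and its carriers 3 rose and 1 fell (median 0.14). That is near the shares over all tested genes, of which 12.0% were raised and 8.71% lowered, with 24.9% raised among those of similar level to the members. The raised genes were UCHL5 (0.43) and USP14 (0.42), deubiquitinases that sit on the 19S particle, and UBA1 (0.29), the main ubiquitin-activating enzyme. UBQLN4, which carries ubiquitinated proteins to the proteasome, changed by -0.17 ± 0.05 (edgeR adjusted p = 0.0479). Its call did not hold with any of the 6 libraries left out (adjusted p up to 0.141), and the number lowered was 4 under upper quartile scaling. UCHL5 lost its call without formononetin replicate 2 or 3 (adjusted p up to 0.0529).

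Of 12 genes for interferon signalling and antigen processing 3 rose and 0 fell by edgeR (median 0.17). Over all tested genes 12.0% were raised and 8.71% lowered, and 24.9% were raised among those of similar level to the members. IRF9 was below control at an unadjusted p under 0.05 but not called (-0.38 ± 0.12, edgeR adjusted p = 0.061). It was lowered in 4 of 17 other settings, among them DESeq2 and leaving out control replicate 3, and not by limma voom. B2M, the light chain of class I antigen molecules, was at 223, 195 and 213 CPM with formononetin and 152, 124 and 153 CPM in control (0.55 ± 0.09, edgeR adjusted p = 0.00555). TAP2, a subunit of the peptide transporter, rose by 0.45 ± 0.06 (adjusted p = 0.00243). STAT2, of interferon signalling, rose by 0.19 ± 0.05 (adjusted p = 0.0371), a call lost without any 1 of the 6 libraries and in 3 other settings (adjusted p up to 0.172).

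**Figure D5:**
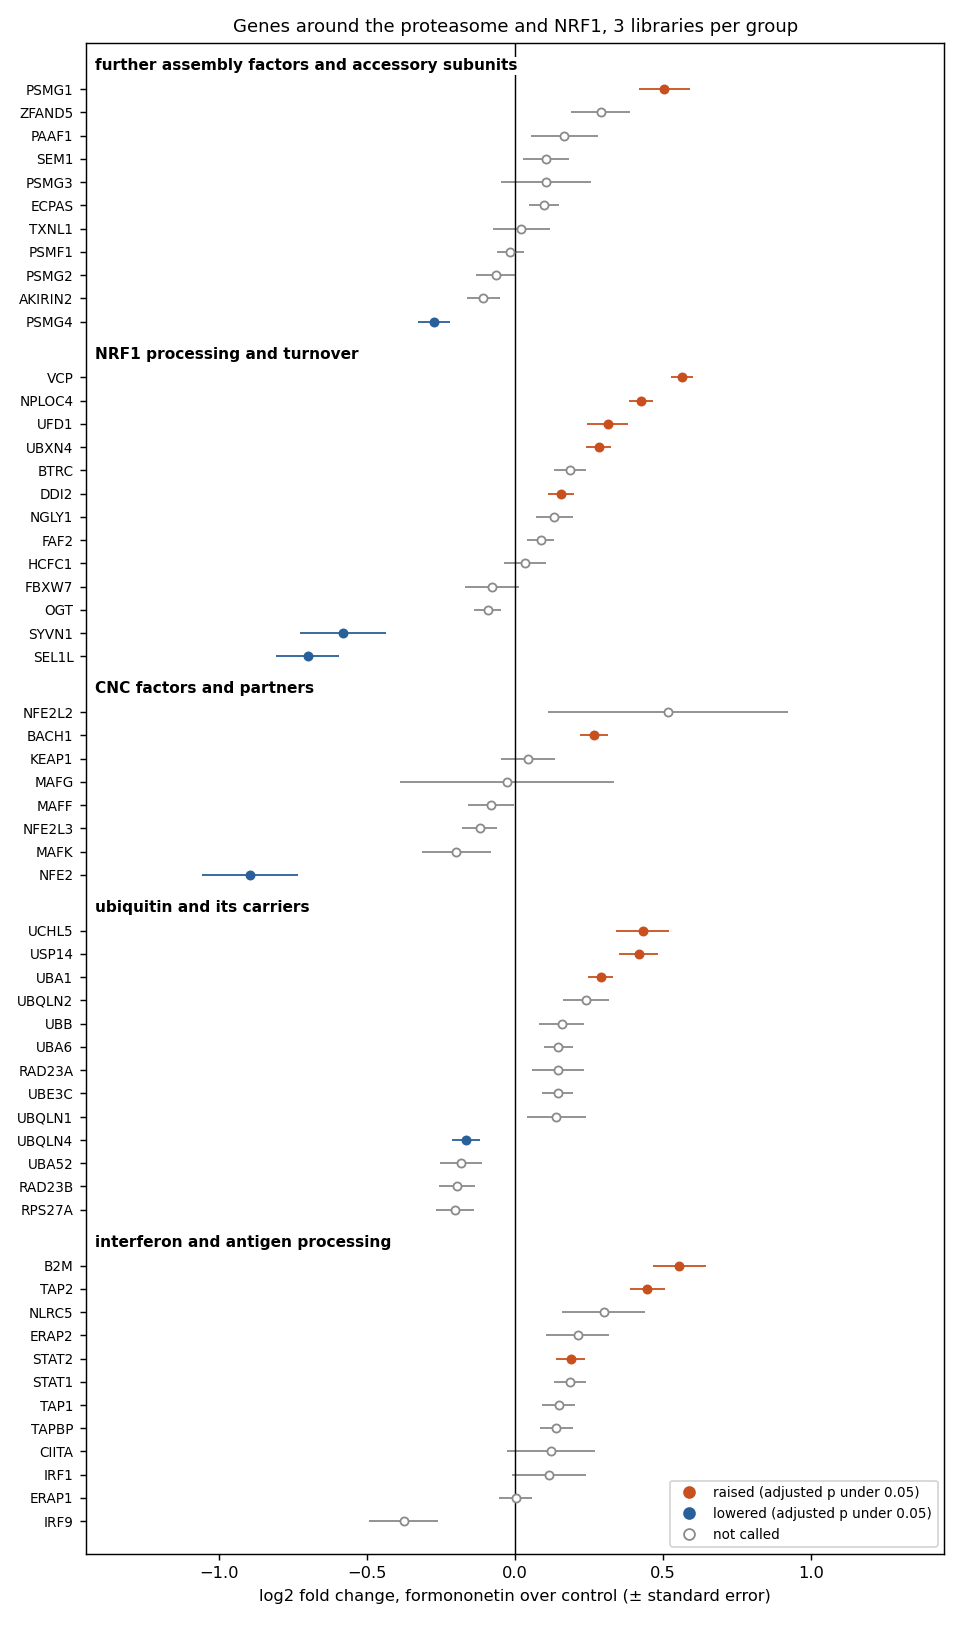
Log2 fold change of formononetin over control for genes of 5 lists around the proteasome and NRF1, with standard errors (3 libraries per group). Filled points were raised or lowered at an adjusted p under 0.05, and open points were not called. VCP and its cofactors lie right of 0, SEL1L and SYVN1 lie left of it, and NFE2L2 has a wide error.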

How the data were processed

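The authors deposited whole-number raw counts per gene for 3 formononetin and 3 control libraries, made with a stranded mRNA kit per the labels' protocols. The submitters' processing notes list STAR 2.5.3a, StringTie 1.3.1c and the build GRCh38, with no roles. Which program counted reads, on which strand and with which annotation is not given in the sources used here. Of 62729 rows, 2165 are assembled loci with no gene identifier (3.82 to 5.62% of counts per library), which entered neither library sizes nor tests. Symbols came from a gene name table, coordinates and exon lengths (merged exons of basic transcripts) from GENCODE 29 (GRCh38), and promoters from RefSeq.

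After filterByExpr, 22230 genes were scaled with TMM and tested two-sided with edgeR 4.0.16 under R 4.3.3 (quasi-likelihood fit and test with group as the only term, Benjamini-Hochberg over all tested genes, threshold 0.05). Standard errors are log2 fold changes over the root of the F statistic. Lists are described by counts and medians, with no set test. The members and lists were chosen with earlier results of these data known. Values are given for the members with the highest and lowest log2 fold change of each part, for PSMB5, PSMB8, PSMB9, PSMB10, ADRM1, POMP, NFE2L1 and PSME4, and for up to 4 called genes of each surrounding list plus NFE2L2, NFE2L3, DDI2, NGLY1, VCP, PSMG1 and SEM1. The values of 1 gene of the ubiquitin list are not reported here. PSMC5, PSMD4 and PSMD9 are given as the lowest of their parts. CD68 was added because it went against the sum of its markers, and IRF9 because it lay below control.

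Counts were simulated from the means, library sizes and trend of spread with level of this comparison (21721 genes fitted). On these, the test called all 50 genes with a set log2 change of 2. It called 43 of 50 at 1, 34 of 50 at -1, 18 of 50 at 0.5 and 10 of 21521 unchanged genes. Most members changed by about 0.5 or less. The numbers called are not split by expression level. Recovery at the level of the members (mean of 55.8 to 131 CPM for the middle 50%) was not tested. Between replicates the chi-square over genes, divided by its degrees of freedom, was 15.2 to 39.2, so no pair was treated as the same library. The alternatives were DESeq2 1.42.0, limma voom (limma 3.58.1), other scalings and filters, the assembled loci, a replicate block and leaving out each library. Chosen after seeing the data were summing members with same-strand gene models that share 50 or more exon bases, and adjustment for GC content and length. Figures were drawn with matplotlib 3.10.9.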

Additional observations from a re-analysis of the deposited data

Results flagged for a closer look

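Rows for pseudogenes named after members, which the comparison of members does not use, also held counts. Of 43 such rows, named after 17 members, 28 had counts. Their summed level was 32.2, 34.1 and 33.4 CPM in formononetin replicates 1 to 3 (mean 33.25) and 27.2, 26.6 and 27.0 CPM in control replicates 1 to 3, so it was higher in every formononetin library. PSMC1P1 was at 11.4, 11.5 and 12.01 CPM with formononetin and 7.04, 7.49 and 8.41 CPM in control, and took 17.7% of the level of PSMC1. PSMA2P1 took 16.1% of the level of PSMA2. PSMD10P1 took 47.8% of the level of PSMD10, and at 8.34, 9.26 and 6.95 CPM with formononetin and 10.03, 8.996 and 9.086 CPM in control its groups overlapped. Whether these reads belong to the pseudogenes or to the parent genes was not tested, and the levels of PSMC1, PSMA2 and PSMD10 are uncertain to that extent.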

How the results depend on the processing

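The number of members raised was 25 to 35 over the 17 alternatives and 25 to 31 with a library left out, and 0 members were lowered in any of them. The median log2 fold change of all members was 0.29 under upper quartile scaling, which moves the median of all tested genes to -0.09, and 0.42 with library totals only. With a library left out it ran from 0.34 to 0.44. Leaving out a library gave 1703 to 2189 for all tested genes raised (2659 with all libraries) and 1272 to 1478 for all tested genes lowered (1937). Among the results of the members, signs turned for genes that were not called. The log2 fold change, PSMB5, was -0.0134 under upper quartile scaling and ran from -0.073 to 0.377 with a library left out. It was below 0 without control replicate 2, control replicate 3 (-0.0651) or formononetin replicate 2 (-0.0678). The log2 fold change, PSME4, was -0.0074 under upper quartile scaling. The log2 fold change, PSMB10, was -0.0699 when summed with its overlapping model. The cause was not tested. Deviations from the group means correlated at -0.0218 to 0.0092 for equal replicate numbers and at -0.0141 to 0.0164 for unequal ones. No pairing by number was seen, but with 3 libraries per group this cannot exclude it, and the labels do not settle it. With the replicate block 29 members were raised. Small rises near the threshold are what 3 libraries per group limit most.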
